A study of Sus scrofa with 9 samples.

Results

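Transcripts of 37 genes of glucose uptake, glycolysis, lactate handling and glycogen were followed in the left ventricle of the newborn pig over the 2 weeks after birth. The genes were chosen by name, and a row was taken when its gene label equalled one of those symbols. This found 33 of the 37 genes among 22629 rows. Another 2, LDHA and ALDOA, stand in the table under Ensembl identifiers that a gene name table pairs with those symbols, and they are given beside the 33 without being counted among them. No row was matched to SLC2A1 or SLC2A3, so these transporters were not analysed here.

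The samples were left ventricular myocardium of wild type pigs without treatment, taken on postnatal day 0, 7 or 15, and each age has 3 of the 9 libraries. Replicates carry the numbers 4, 5 and 6 at day 0, 2, 5 and 6 at day 7, and 1, 2 and 6 at day 15. Whether each library is a different pig is not stated in the labels, and the tests therefore speak of the spread among libraries, which may be technical. Values are TPM, a measure of transcript abundance corrected for transcript length that sums to the same total in each library and keeps no record of sequencing depth.

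Glucose enters a heart muscle cell through facilitative transporters and is trapped by hexokinase. Phosphofructokinase commits it to glycolysis, the lower part of the pathway yields ATP and pyruvate, and lactate dehydrogenase with the monocarboxylate transporters exchanges pyruvate and lactate with the blood. Glycogen is the stored form, built by glycogen synthase and opened by glycogen phosphorylase. Many steps are served by several genes, of which a muscle form and a more widely expressed form are known from mammals. The fetal and newborn heart is known for its reliance on glucose and lactate, and the mature heart for its use of fatty acids.

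Each of 10 ventricular cardiomyocyte markers was detected, and together they summed to 50307 to 74719 TPM per library. Of the 10, ACTC1, cardiac actin, fell at day 7 and at day 15 against day 0 (-1.19 and -1.72, limma adjusted p = 0.0129 and 0.00210). Of all genes 8.88% fell at day 7 and 18.4% at day 15 against day 0. Of 5 genes listed as atrial markers 4 had a row (NPPA, MYL4, SLN and NR2F1), at 148 to 2959 TPM summed. Replicate 5 of day 0 and of day 7 stood well above the rest. Of the 3 tested, NPPA and NR2F1 fell at day 15 against day 0 (-3.96 and -0.53, limma adjusted p = 0.0393 and 0.0466), where 18.4% of all genes fell. These calls were lost in 12 of 22 and 14 of 21 settings. Whether the sum reflects atrial tissue was not tested. A single unnamed gene took 24.0% to 46.0% of all TPM, lowest in day 0 replicate 6 and highest in day 15 replicate 1. Mitochondrial transcripts took 16.5% to 24.6%, lowest in day 15 replicate 1 and highest in day 7 replicate 6, where the unnamed gene took 37.2%. Because TPM is a share, a change in such transcripts alters the share left for all others. Relative to day 0, the median log2 fold change of all 12268 genes tested was -0.04 at day 7 and -0.19 at day 15 on the deposited values, and 0.00 and 0.01 after median-of-ratios scaling. Fold changes below are on the log2(TPM + 1) scale, and for each called gene of the group the value relative to the median of all genes, or that median, is given too. Of the 9 libraries, day 7 replicate 6 held the lowest value of 18 of the 31 tested genes of the group, and results that rest on it are marked.

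The 33 genes covered a wide range of TPM. The 33 together made up 1.28% ± 0.0540 of all TPM at day 0, 0.997% ± 0.192 at day 7 and 1.35% ± 0.0877 at day 15 (mean ± SD, n = 3 libraries per age here and below). With the most abundant gene left out of the total, these shares were 1.84% ± 0.0867, 1.51% ± 0.240 and 2.18% ± 0.356. GAPDH, the dehydrogenase that opens the energy-yielding phase of glycolysis, supplied 46.8% to 58.8% of the summed level, and muscle enolase ENO3, pyruvate kinase PKM and triose phosphate isomerase TPI1 followed. By mean level at each age aldolase A, ALDOA, lay above those 3, at 1058 to 2751 TPM. At the other end, PFKFB1 (0.323 to 0.783 TPM) and the row named LDHB (0.129 to 0.560 TPM) stayed below 1 TPM in each library and were not tested, which left 31 of 33. PHKG1, PFKFB3 and HK2 were the lowest of the tested genes by mean level.

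**Figure D1:**
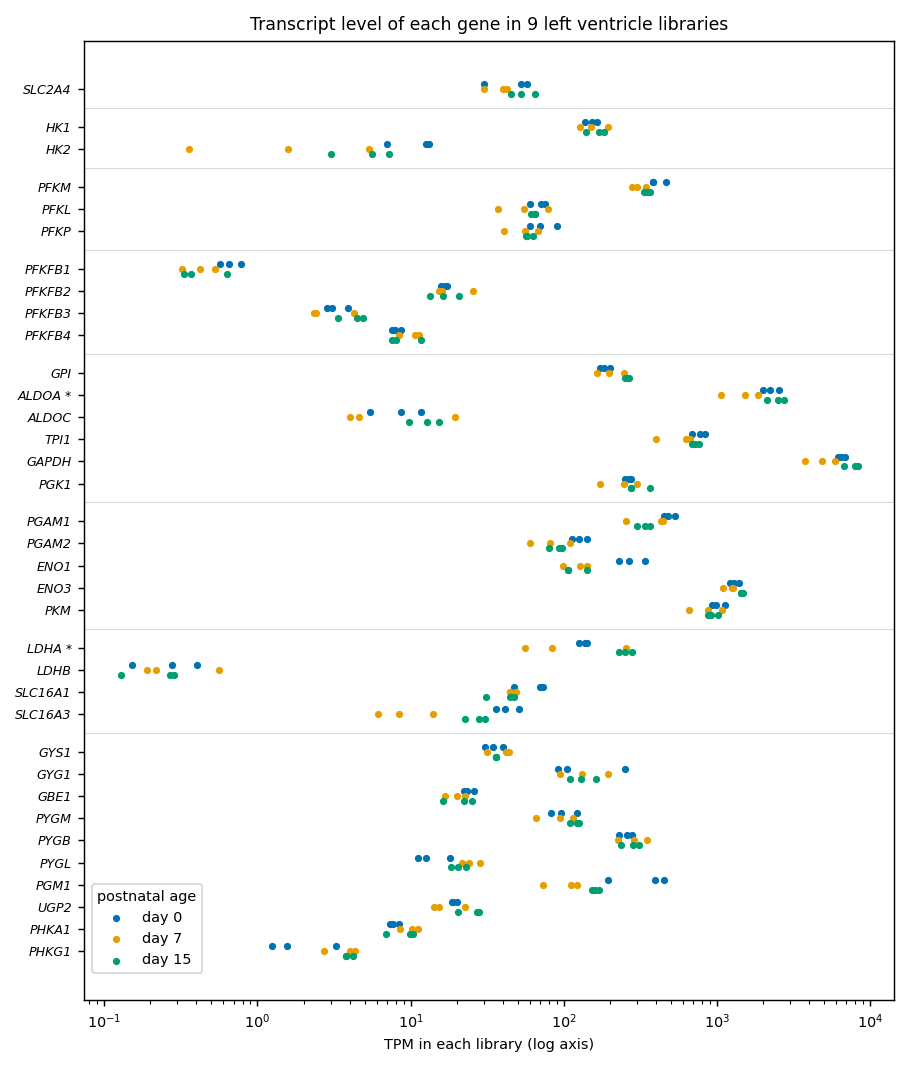
Transcript level of each gene in each library (horizontal log axis, TPM), with 3 points per age in blue for day 0, orange for day 7 and green for day 15, and genes grouped by role from glucose uptake at the top to glycogen at the bottom. An asterisk marks the 2 genes found by identifier. GAPDH lies highest at 3777 to 8273 TPM. The ages of SLC16A3 do not overlap, and those of HK2 stand apart only between day 0 and day 7.

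Between day 0 and day 7, most of the group did not pass the threshold. Of the 31 genes tested, 1 rose and 4 fell (limma, adjusted p under 0.05 over all genes), and 16.6% of all genes passed, 7.67% upward and 8.88% downward. The 5 genes are thus 16.1% of the group, a share near the background. The median log2 fold change of the 31 genes was -0.18, beside -0.04 for all genes. Of the 31, 22 had a negative and 9 a positive value, where 46.2% of all genes had a positive value. The sign of 5 of the 31 changed under at least 1 of 4 other scalings. Without day 7 replicate 6 the group's median was -0.05, beside 0.00 for all genes, and 12 of 31 values were positive. Without day 7 replicate 5 the group's median was -0.36, beside -0.10 for all genes, and 7 of 31 were positive. Without day 7 replicate 2 these values were -0.21, -0.04 and 11 of 31. Without regard to the test, 11 of the 31 genes had ages that stood fully apart, 2 higher and 9 lower at day 7, where this was so for 41.4% of all genes, 17.6% higher and 23.8% lower.

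Over the second week, day 15 against day 7, 1 of the 31 genes rose and 0 fell, where 0.171% of all genes passed, 0.0408% upward and 0.130% downward (limma, adjusted p under 0.05). Before adjustment, 5 of the 31 were higher and 0 lower at p under 0.05 by limma, where 12.8% of all genes had such a p in either direction. The group's median was 0.14, beside -0.15 for all genes. Of all genes 26.5% had a positive value, and of the group 21 of 31 did. That count was 23 to 29 under the 4 other scalings, 1 of which left GAPDH out. It was 16 without day 7 replicate 6, 24 without day 7 replicate 5 and 21 without day 7 replicate 2. For 7 of the 31 genes all day 15 libraries lay above all day 7 libraries, and for 0 below, where 1.46% of all genes lay above and 17.9% below.

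Over the whole period, day 15 against day 0, 1 rose and 3 fell, where 5.53% of all genes rose and 18.4% fell (limma, adjusted p under 0.05). The median was 0.04 for the group and -0.19 for all genes. For 12 of the 31 genes the ages stood fully apart, 5 higher and 7 lower at day 15, where this was so for 39.9% of all genes, 9.45% higher and 30.5% lower. The split of calls moved with the scaling, both in the group and over all genes, though not by the same amount. After median-of-ratios scaling 6 of the 31 rose and 1 fell, where 31.0% of all genes passed and 49.3% of those were upward. After quantile normalization 8 rose and 1 fell, where 30.7% of all genes passed, 43.3% of them upward. Without the most abundant gene 4 rose and 3 fell, where 30.8% passed, 36.7% of them upward, and without mitochondrial transcripts and the 20 most abundant genes 6 rose and 1 fell, where 29.1% passed, 50.6% of them upward. At day 7 against day 0, median-of-ratios scaling gave 3 that rose and 5 that fell, where 30.9% of all genes passed, 48.3% of them upward. A further test set the change over the first week against that over the second, day 7 minus day 0 against day 15 minus day 7. Of the 31 genes 2 passed, SLC16A3 and PGM1, both with a negative difference, where 1.92% of all genes passed, 1.53% with a positive and 0.391% with a negative difference (limma, adjusted p under 0.05). The 3 comparisons share libraries and are not independent of each other.

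**Figure D2:**
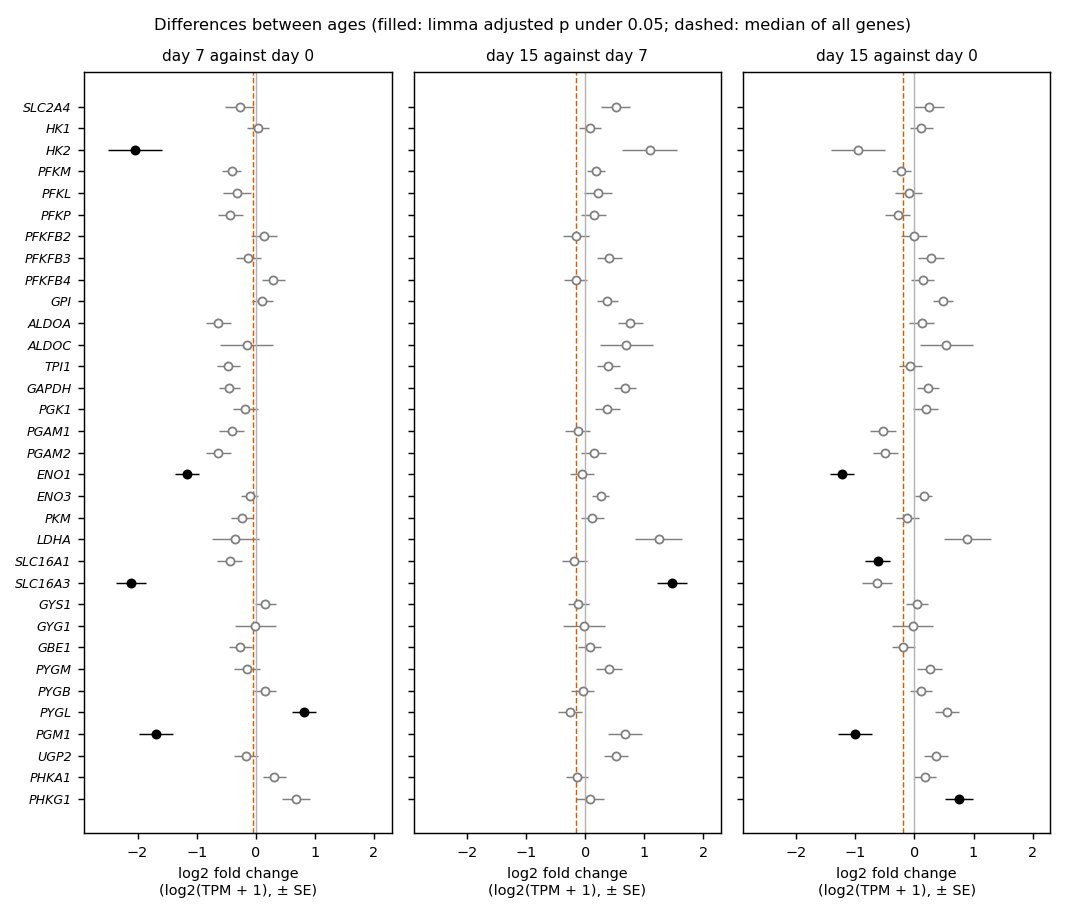
Log2 fold change on log2(TPM + 1) with its SE for 31 genes and the 2 found by identifier (ALDOA and LDHA), one panel per comparison. Filled points passed the limma threshold, open points did not, and the dashed line is the median of all 12268 genes. SLC16A3 lies at -2.11 in the panel of day 7 against day 0 and at 1.47 in that of day 15 against day 7.

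For glucose uptake the group held only SLC2A4, the insulin-responsive transporter GLUT4. Its level was 52.5, 30.2 and 57.3 TPM on day 0, 40.3, 42.3 and 29.9 TPM on day 7 and 64.6, 45.2 and 52.4 TPM on day 15. The day 15 libraries lay above those of day 7 without overlap, yet the difference did not pass (0.52 ± 0.25 SE, limma adjusted p = 0.406). The other comparisons did not pass either, with limma adjusted p = 0.459 for day 7 against day 0 and 0.490 for day 15 against day 0.

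Hexokinase, which phosphorylates glucose on entry, is encoded here by HK1, the widely expressed form, and HK2, the insulin-responsive form of muscle. HK2 had 12.7, 7.03 and 13.3 TPM on day 0, 1.58, 5.39 and 0.357 TPM on day 7 and 7.20, 3.03 and 5.56 TPM on day 15. Each day 7 library lay below each day 0 library, and the day 15 libraries reached from within the day 7 range to within the day 0 range. HK2 fell at day 7, with a log2 fold change of -2.04 ± 0.46 SE (limma adjusted p = 0.0149), beside a median of -0.04 for all genes. The call was lost when replicate 4 or 6 of day 0 or replicate 6 of day 7 was left out, with limma adjusted p = 0.0587, 0.0764 and 0.0501. It was also lost without a filter on low values and with the replicate number as a block. HK2 averaged 11.00 ± 3.45 TPM at day 0, 2.44 ± 2.62 TPM at day 7 and 5.26 ± 2.10 TPM at day 15. Neither comparison of day 15, with day 7 or with day 0, passed (limma adjusted p = 0.355 and 0.148), though day 15 against day 0 did without day 7 replicate 5 (-0.95, limma adjusted p = 0.0493). HK1 was the more abundant form, at 137, 164 and 154 TPM on day 0, 152, 193 and 128 TPM on day 7 and 140.3, 170.1 and 184 TPM on day 15. The ages overlapped, and HK1 differed by 0.04 ± 0.19 SE on the log2 scale at day 7 against day 0 (limma adjusted p = 0.903).

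Phosphofructokinase, the committing step, was dominated by the muscle gene PFKM. PFKM had 384, 379.6 and 465 TPM on day 0, 346, 299 and 279.7 TPM on day 7 and 364, 335 and 348 TPM on day 15. Its newborn libraries lay above those of the later ages without overlap, and its differences did not pass (limma adjusted p = 0.0967 for day 7 against day 0 and 0.318 for day 15 against day 0). The liver form PFKL (37.3 to 79.1 TPM) and the platelet form PFKP (40.4 to 89.7 TPM) were each several times lower, and 0 of the 3 genes passed in any comparison with limma. Fructose 2,6-bisphosphate, the strongest activator of phosphofructokinase, is made and removed by the PFKFB enzymes. The heart form PFKFB2 was the most abundant at 16.8, 15.9 and 17.3 TPM on day 0, 16.1, 25.5 and 15.3 TPM on day 7 and 13.3, 16.2 and 20.8 TPM on day 15. PFKFB4 (7.52 to 11.7 TPM) and the inducible PFKFB3 (2.34 to 4.89 TPM) were lower, and none of the 3 tested PFKFB genes passed in the limma fit. PFKFB3 passed upward at day 15 against day 0 only after median-of-ratios scaling among the 4 scalings.

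In the middle of the pathway, levels at day 7 were spread widely among libraries. GAPDH had 6187, 6826 and 6484 TPM on day 0, 4856, 5894 and 3777 TPM on day 7 and 7995, 6723 and 8273 TPM on day 15. The day 7 libraries lay below those of both other ages without overlap, and the differences were -0.45 ± 0.19 SE at day 7 against day 0 and 0.68 ± 0.19 SE at day 15 against day 7 (limma adjusted p = 0.112 and 0.197). ALDOA, which splits fructose 1,6-bisphosphate, had 2210.0, 1994 and 2544 TPM on day 0, 1525, 1848 and 1058 TPM on day 7 and 2493, 2124 and 2751 TPM on day 15. It showed the same gap between ages and also did not pass (limma adjusted p = 0.0582 at day 7 against day 0 and 0.201 at day 15 against day 7). At day 7 against day 0 ALDOA passed without day 7 replicate 5 (-0.82, limma adjusted p = 0.0377) and with library weights (-0.62, limma adjusted p = 0.0360). With library weights it also passed at day 15 against day 7 (0.89, limma adjusted p = 0.00207). The triose phosphate isomerase TPI1 (402 to 831 TPM) was likewise lower in each day 7 library than in any other, and did not pass. For each of GAPDH, ALDOA and TPI1 the lowest library was day 7 replicate 6. Processed copies of GAPDH are known in mammalian genomes, and the sources used here do not state how shared reads were handled.

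Glucose phosphate isomerase, GPI, links glucose 6-phosphate to fructose 6-phosphate. It had 182, 173 and 201 TPM on day 0, 198, 246 and 163 TPM on day 7 and 251, 258 and 267 TPM on day 15. The day 15 libraries were higher than all 6 earlier ones and close to each other. On the deposited values the difference from day 0 did not pass (0.48 ± 0.18 SE, limma adjusted p = 0.0641), while under each of the 4 other scalings it did, at log2 fold changes of 0.64 to 0.77 (limma adjusted p between 0.00248 and 0.0101), and also without day 7 replicate 6 (0.48, limma adjusted p = 0.0410). Phosphoglycerate kinase PGK1, the enzyme of the ATP-yielding step after GAPDH, had 172 to 366 TPM, and aldolase C, ALDOC, had 4.00 to 19.5 TPM with its highest value in day 7 replicate 5. Neither passed in any of the 3 comparisons of ages (limma).

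Enolase is made from several genes. ENO1, the widely expressed form, had 268, 231 and 338 TPM on day 0, 142, 127 and 99.4 TPM on day 7 and 107, 141 and 106 TPM on day 15. All 6 later libraries lay below the newborn ones. ENO1 fell at both later ages, with log2 fold changes of -1.17 ± 0.20 SE at day 7 and -1.23 ± 0.20 SE at day 15, each against day 0 (limma adjusted p = 0.00581 and 0.00308), or -1.13 and -1.04 relative to the median of all genes. Both calls were kept in each of 22 alternative settings. ENO3, the muscle enolase, had 1216, 1391 and 1294 TPM on day 0, 1261, 1269 and 1093 TPM on day 7 and 1435, 1429 and 1471 TPM on day 15. It varied least of the 31 genes, with a 1.35-fold span over the 9 libraries, and did not pass (limma adjusted p = 0.469 for day 15 against day 0), although it did so upward under 2 of the 4 other scalings.

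In the remaining lower steps no gene passed. Phosphoglycerate mutase is encoded by PGAM1, the brain form, at 256 to 532 TPM, and PGAM2, the muscle form, at 60.3 to 143 TPM. For both, the newborn libraries lay above all day 7 and day 15 libraries. PGAM2 averaged 83.5 ± 24.8 TPM at day 7 against 127 ± 15.0 TPM at day 0 (-0.63 ± 0.21 SE, limma adjusted p = 0.0596), and it passed in 3 of the 4 other scalings and without day 7 replicate 2 (-0.85, limma adjusted p = 0.0315). PGAM1 averaged 336 ± 33.8 TPM at day 15 against 487 ± 41.9 TPM at day 0 (limma adjusted p = 0.0855), and this passed without day 7 replicate 6 (-0.53, limma adjusted p = 0.0260). Pyruvate kinase PKM, whose gene makes an adult muscle and a fetal splice form that a gene-level value cannot separate, had 658 to 1123 TPM and did not pass.

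SLC16A3 encodes MCT4, the transporter known for lactate export from glycolytic cells. Its level was 41.1, 36.0 and 51.1 TPM on day 0, 8.42, 14.1 and 6.14 TPM on day 7 and 28.0, 22.6 and 30.7 TPM on day 15. The 3 ages did not overlap, with day 0 highest, day 7 lowest and day 15 between them. SLC16A3 fell at day 7, to 9.55 ± 4.10 TPM against 42.7 ± 7.68 TPM at day 0, a log2 fold change of -2.11 ± 0.26 SE (limma adjusted p = 0.00151, -2.06 relative to the median of all genes), and this call was kept in each of 22 alternative settings.

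Over the second week SLC16A3 was the gene of the group that rose, with 27.1 ± 4.09 TPM at day 15 against 9.55 ± 4.10 TPM at day 7 (1.47 ± 0.26 SE, limma adjusted p = 0.0497, 1.62 relative to the median of all genes). This rise stood at the threshold and was lost in 16 of 22 settings, among them each of the 4 other scalings. It was lost without day 0 replicate 4 or 6, at limma adjusted p = 0.0796 and 0.0793, and without day 7 replicate 2 or 6, at limma adjusted p = 0.199 and 0.151. It was also lost without day 15 replicate 1, 2 or 6, at limma adjusted p = 0.0943, 0.0780 and 0.195. Day 15 did not differ from day 0 past the threshold (-0.63 ± 0.26 SE, limma adjusted p = 0.0888). The difference passed without day 7 replicate 5 (-0.63, limma adjusted p = 0.0446). It also passed with only the 2 ages in the fit (-0.63, limma adjusted p = 0.0478) and with library weights (-0.48, limma adjusted p = 0.0440).

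SLC16A1 encodes MCT1, the carrier by which heart muscle takes up lactate. It had 47.6, 73.6 and 69.9 TPM on day 0, 44.2, 44.7 and 48.8 TPM on day 7 and 31.1, 46.9 and 44.6 TPM on day 15. Day 15 lay below day 0 without overlap, and SLC16A1 fell over the whole period, with a log2 fold change of -0.62 ± 0.21 SE (limma adjusted p = 0.0489, -0.43 relative to the median of all genes). The call was at the threshold and was lost in 15 of 22 settings, including 3 of the 4 other scalings. Leaving out 1 library lost it in 7 of 9 cases, day 0 replicates 5 and 6, each day 7 library, and day 15 replicates 1 and 6, at limma adjusted p from 0.0568 to 0.180. In RefSeq the gene overlaps LRIG2, which had 1.72 to 3.94 TPM.

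The muscle subunit of lactate dehydrogenase, LDHA, had 138, 126 and 142 TPM on day 0, 83.8, 254 and 55.7 TPM on day 7 and 277, 229 and 251 TPM on day 15. At day 7, replicate 5 lay near the day 15 libraries and the other 2 lay below every newborn library. The mean was 253 ± 24.0 TPM at day 15 against 135 ± 8.46 TPM at day 0, without overlap, and the difference did not pass (0.89 ± 0.40 SE, limma adjusted p = 0.120). The calls of LDHA depended on day 7 replicate 5. Without it, LDHA passed at day 15 against day 0 (0.89, limma adjusted p = 0.00841), fell at day 7 against day 0 (-0.98, limma adjusted p = 0.0184) and rose at day 15 against day 7 (1.87, limma adjusted p = 0.00258). With only the ages of day 15 and day 0 in the fit, the whole-period difference also passed (0.89, limma adjusted p = 0.00528). With library weights and no library left out, LDHA passed at day 15 against day 0 (0.88, limma adjusted p = 0.0284). With those weights it also passed at day 15 against day 7 (1.21, limma adjusted p = 0.0105). The row named LDHB, the heart subunit, stayed at or below 0.560 TPM in all 9 libraries. RefSeq places the symbol LDHB at 2 loci of Sscrofa11.1, and the sources used here do not tell which of them this row counts, so no level of the heart subunit is drawn from it.

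Of the 10 glycogen genes tested, 1 rose and 1 fell at day 7 against day 0, and 1 rose and 1 fell at day 15 against day 0 (limma, adjusted p under 0.05), near the shares of all genes that passed, 16.6% and 23.9%. PGM1, phosphoglucomutase, which converts between glucose 1-phosphate and glucose 6-phosphate, had 394, 194 and 449 TPM on day 0, 111, 122 and 73.6 TPM on day 7 and 152, 159 and 171 TPM on day 15. All day 7 libraries lay below all others, and the day 15 libraries lay below those of day 0. PGM1 fell at day 7 to 102 ± 25.3 TPM, against 346 ± 134 TPM at day 0 (-1.69 ± 0.29 SE, limma adjusted p = 0.00541, -1.65 relative to the median of all genes), and the call was kept in each of 22 settings.

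At day 15 PGM1 was still lower than at day 0 (161 ± 9.21 TPM at day 15, -1.01 ± 0.29 SE, limma adjusted p = 0.0255, -0.82 relative to the median of all genes). This call was lost in 9 of 22 settings, among them 3 of the 4 other scalings. Leaving out day 0 replicate 4 or 6 gave limma adjusted p = 0.0881 and 0.132, and leaving out day 15 replicate 1 or 6 gave 0.0641 and 0.0600.

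Glycogen phosphorylase releases glucose 1-phosphate from glycogen and has a muscle (PYGM), a brain (PYGB) and a liver (PYGL) form. PYGL had 11.1, 17.9 and 12.5 TPM on day 0, 24.2, 28.5 and 21.7 TPM on day 7 and 18.2, 23.0 and 20.4 TPM on day 15. Day 7 and day 15 both lay above day 0 without overlap. PYGL rose at day 7 by 0.81 ± 0.20 SE (limma adjusted p = 0.0204, 0.86 relative to the median of all genes). Its call was lost without day 0 replicate 4 or 6 and without day 7 replicate 2 or 5, at limma adjusted p = 0.0872, 0.0923, 0.0526 and 0.0676. It was also lost with the replicate number as a block. The difference at day 15 against day 0 did not pass on the deposited values (0.55 ± 0.20 SE, limma adjusted p = 0.0627) and passed under each of the 4 other scalings, at log2 fold changes of 0.71 to 0.82 (limma adjusted p between 0.00621 and 0.0147) and without day 0 replicate 5 (0.74, limma adjusted p = 0.01997). PYGL overlaps ABHD12B in RefSeq, which had 0.626 to 2.09 TPM.

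PYGB was the most abundant phosphorylase, with 230.1, 277 and 260.1 TPM on day 0, 351, 288 and 227 TPM on day 7 and 238, 309 and 285 TPM on day 15. PYGM had 82.3, 122 and 96.5 TPM on day 0, 115, 65.7 and 94.9 TPM on day 7 and 125, 122 and 109 TPM on day 15. The ages overlapped for both genes, and neither passed (limma adjusted p = 0.589 and 0.672 at day 7 against day 0). PYGB passed upward at day 15 against day 0 under 2 of the 4 other scalings, and at day 7 against day 0 under 1.

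Phosphorylase is switched on by phosphorylase kinase. Its muscle catalytic subunit PHKG1 had 1.25, 3.24 and 1.57 TPM on day 0, 2.72, 4.03 and 4.32 TPM on day 7 and 3.76, 4.19 and 3.77 TPM on day 15. Day 15 lay above day 0 without overlap, and PHKG1 rose by 0.76 ± 0.24 SE over the whole period (limma adjusted p = 0.0386, 0.95 relative to the median of all genes). The call passed under all 4 other scalings and was lost in 8 of 21 settings. Among these were the fits without day 0 replicate 4 or 6, at limma adjusted p = 0.136 and 0.149, and without day 15 replicate 1, 2 or 6, at limma adjusted p = 0.0685, 0.0739 and 0.0892. The gene overlaps SUMF2 in RefSeq, at 2.26 to 3.92 TPM. The muscle regulatory subunit PHKA1 had 6.91 to 11.2 TPM and did not pass.

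On the side of synthesis little differed. UGP2, which makes the activated sugar for glycogen synthesis, had 18.75, 20.02 and 18.87 TPM on day 0, 14.2, 22.5 and 15.3 TPM on day 7 and 20.3, 27.2 and 27.9 TPM on day 15. Day 15 lay above day 0 without overlap, and the difference did not pass on the deposited values (0.36 ± 0.20 SE, limma adjusted p = 0.211) but did under each of the 4 other scalings (0.51 to 0.63 on the log2 scale, limma adjusted p between 0.0126 and 0.0407). Glycogen synthase GYS1 had 30.4 to 44.1 TPM, the branching enzyme GBE1 16.3 to 26.1 TPM and the primer protein GYG1 92.1 to 251 TPM, and none of the 3 passed with limma. The sign of GYG1 changed with the scaling in each comparison of ages, and its highest value, 251 TPM, was that of day 0 replicate 5.

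**Figure D3:**
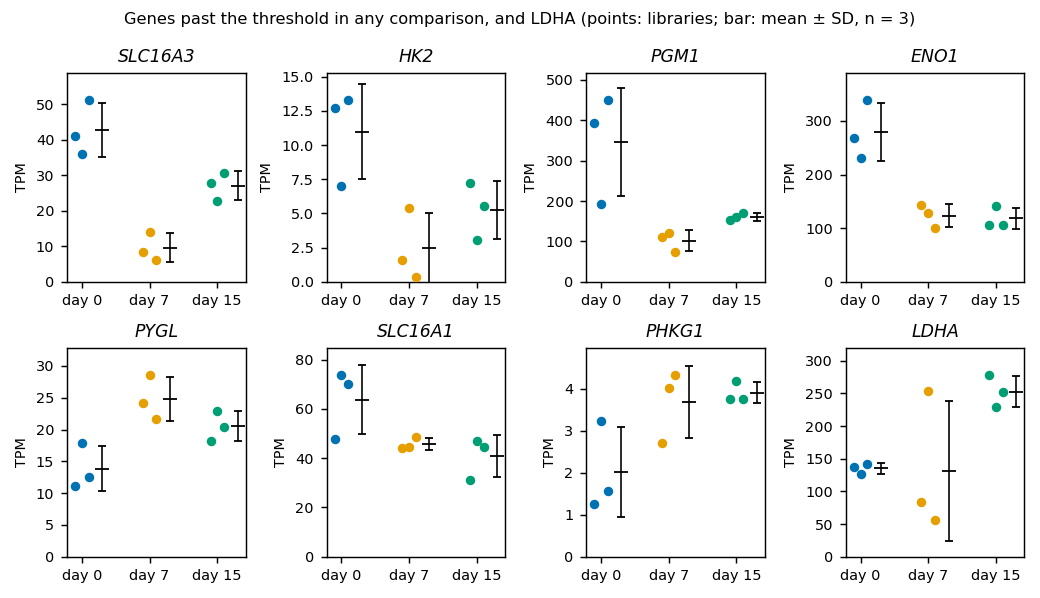
TPM of the 7 genes that passed in any comparison, and of LDHA, by age (points are libraries, black bars the mean ± SD of 3 libraries, cut at 0 where the SD reaches below it). SLC16A3 reaches 14.1 TPM at most at day 7 and 22.6 TPM at least at day 15, and LDHA in day 7 replicate 5 stands at 254 TPM.

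To compare muscle and non-muscle forms, ratios within a library were used, since scaling of TPM cancels in them apart from the pseudocount. Of 12 planned ratios 10 could be computed, and the 2 that need SLC2A1 or SLC2A3 could not. An exact permutation test of the F statistic over all assignments of libraries to the 3 ages was adjusted by the Benjamini-Hochberg method over the 10 ratios, and its smallest possible p is 0.00357. By this test 0 of the 10 ratios passed, while 4 had p under 0.05 before adjustment and 3 passed with limma, an alternative chosen after the data were seen.

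The muscle share of enolase, ENO3 in ENO1 plus ENO3, was 81.9%, 85.8% and 79.3% at day 0, 89.8%, 90.9% and 91.7% at day 7 and 93.1%, 91.0% and 93.3% at day 15. All later libraries lay above the newborn ones. The ratio had an exact permutation p of 0.00714 (0.0714 adjusted), and it passed with limma (adjusted p = 0.00400) but not with limma and a replicate block (adjusted p = 0.0596), and it passed in the permutation test without day 7 replicate 6 or without day 15 replicate 2 (adjusted p = 0.0476 and 0.0357).

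SLC16A3 supplied 46.3%, 32.9% and 42.2% of the summed level of SLC16A1 and SLC16A3 at day 0, 16.0%, 24.0% and 11.2% at day 7 and 47.3%, 32.5% and 40.8% at day 15. Day 7 lay below both other ages, which overlapped each other (exact permutation p = 0.0321, 0.0804 adjusted, and limma adjusted p = 0.00908). HK2 made up 6.85% ± 2.37 of hexokinase at day 0, 1.34% ± 1.25 at day 7 and 3.19% ± 1.58 at day 15 (exact permutation p = 0.0321, 0.0804 adjusted, and limma adjusted p = 0.0240). The newborn libraries lay above those of day 7, and day 15 overlapped both.

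PFKFB2 over PFKFB3 was the remaining ratio with an unadjusted p under 0.05, and its log2 ratio averaged 2.05 ± 0.13 at day 0, 2.32 ± 0.05 at day 7 and 1.75 ± 0.23 at day 15 (exact permutation p = 0.0179, 0.0804 adjusted, and 0.0357 adjusted without day 15 replicate 6). PFKM supplied 74.3% ± 0.475 of phosphofructokinase at day 0, 73.7% ± 3.97 at day 7 and 73.9% ± 0.711 at day 15 (exact permutation p = 0.975, and the same adjusted). That ratio passed without day 7 replicate 6, which had the highest muscle share of the 9 libraries at 78.3% (exact permutation, adjusted p = 0.0476). PGAM2, in contrast, was the smaller form. It made up 20.7% ± 0.573 of phosphoglycerate mutase at day 0, 18.2% ± 2.53 at day 7 and 21.1% ± 0.366 at day 15 (exact permutation p = 0.05, 0.1 adjusted).

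PYGM made up 27.0% ± 2.06 of phosphorylase at day 0, 22.8% ± 5.24 at day 7 and 28.7% ± 3.62 at day 15, with PYGB supplying 62.4% to 75.3% (exact permutation p = 0.211, 0.263 adjusted). ALDOA was 99.0% to 99.8% of ALDOA plus ALDOC (exact permutation p = 0.621, 0.690 adjusted). The ratio of GYS1 to PYGM had an exact permutation p of 0.118 (0.196 adjusted) and passed without day 7 replicate 6 (exact permutation, adjusted p = 0.0476). The ratio of LDHB to LDHA follows LDHA, because the LDHB row was under 1 TPM, and had an exact permutation p of 0.164 (0.235 adjusted, and 0.0357 adjusted without day 7 replicate 5).

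**Figure D4:**
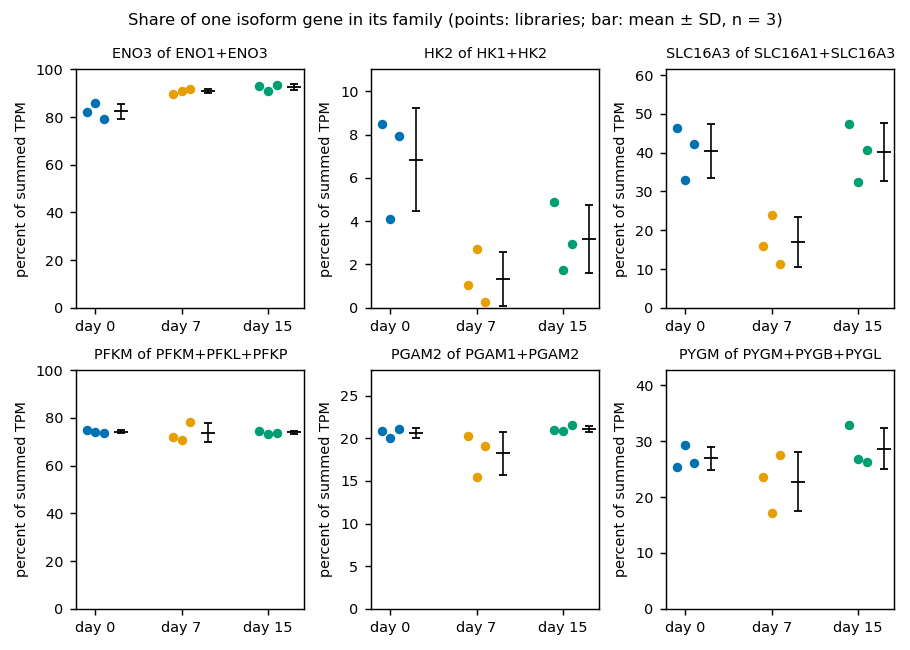
Percent of a family's summed TPM that came from 1 gene, by age (points are libraries, black bars the mean ± SD of 3 libraries, vertical scale from 0 in each panel). The ENO3 share is at most 85.8% at day 0 and at least 89.8% later, while the PFKM share stays between 70.9% and 78.3%.

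Genes around these pathways were read from lists that were chosen by role. Against day 0, 7.67% of all genes rose and 8.88% fell at day 7, and 5.53% rose and 18.4% fell at day 15, and the list counts stand beside these shares. In the pentose phosphate pathway, which draws on glucose 6-phosphate, 2 of 7 genes fell at day 7 against day 0 and 4 of 7 at day 15 against day 0, with median log2 fold changes of -0.48 and -0.66, beside -0.04 and -0.19 for all genes. PGD, its second dehydrogenase, had 124, 61.1 and 133 TPM on day 0, 36.3, 41.5 and 30.3 TPM on day 7 and 30.7, 36.8 and 34.1 TPM on day 15. It fell at both later ages, with log2 fold changes of -1.46 ± 0.26 SE at day 7 and -1.54 ± 0.26 SE at day 15, each against day 0 (limma adjusted p = 0.00632 and 0.00335), in each of 22 settings. PGLS, the lactonase, fell at day 15 against day 0 (log2 fold change -0.99, limma adjusted p = 0.00401). The other 2 genes that fell at day 15 were TKT and TALDO1, each lost in 6 of 22 settings.

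Among 13 other glycolytic and side enzymes, 4 fell at day 7 and 3 at day 15, each against day 0. They included TIGAR, which lowers fructose 2,6-bisphosphate, with 17.1 ± 5.19 TPM at day 15 against 33.3 ± 5.63 TPM at day 0 (-0.95, limma adjusted p = 0.0152, lost in 2 of 22 settings, 1 of them without day 0 replicate 6), and BPGM, ENO2 and GPD1L at day 7, lost in 7 of 22, 7 of 21 and 8 of 22 settings. Both subunits of the mitochondrial pyruvate carrier fell at day 7 against day 0, with log2 fold changes of -0.62 for MPC1 and -0.87 for MPC2 (limma adjusted p = 0.0434 and 0.0128). The call of MPC1 was lost in 10 of 22 settings and that of MPC2 in 2. Of 3 other glucose transporters tested, SLC2A8 fell at both later ages, with log2 fold changes of -0.90 at day 7 and -1.27 at day 15 against day 0 (limma adjusted p = 0.00923 and 0.00148), with a day 0 level of 7.61 ± 1.22 TPM, and SLC2A10 rose at day 7 by 0.58 (limma adjusted p = 0.0394, lost in 9 of 21 settings).

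Of 19 other glycogen genes, 2 rose and 2 fell at day 7, and 2 rose and 3 fell at day 15, each against day 0. GAA, the lysosomal glucosidase that degrades glycogen, rose by 1.08 at day 7, with 19.1 ± 1.90 TPM at day 7 against 8.63 ± 1.95 TPM at day 0 (limma adjusted p = 0.00784, kept in each of 22 settings). Subunits of phosphorylase kinase named for the liver moved apart. PHKA2 had 2.41, 3.72 and 2.45 TPM on day 0, 5.21, 7.60 and 6.10 TPM on day 7 and 4.96, 6.49 and 6.44 TPM on day 15. It rose at both later ages against day 0 (0.92 and 0.86, limma adjusted p = 0.0125 and 0.0114, each lost in 2 of 22 settings). PHKG2 had 20.9, 17.0 and 24.8 TPM on day 0, 14.2, 11.2 and 8.86 TPM on day 7 and 8.44, 9.51 and 7.87 TPM on day 15. It fell at both (-0.83 and -1.18, limma adjusted p = 0.01999 and 0.00367, the day 7 call lost in 3 of 22 settings and the day 15 call in none).

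Of 24 genes of the hypoxia-inducible factors and their targets outside glycolysis, 2 fell at day 7, and 2 rose and 2 fell at day 15, each against day 0. BNIP3, a mitochondrial target of these factors, had 82.3, 76.1 and 96.8 TPM on day 0, 70.0, 133 and 62.9 TPM on day 7 and 196, 179.8 and 234 TPM on day 15. BNIP3 rose at day 15 against day 0 by 1.25 ± 0.25 SE (limma adjusted p = 0.00691, kept in each of 22 settings). As with LDHA, its highest day 7 value was that of replicate 5. BNIP3L also rose at day 15 (0.99, limma adjusted p = 0.0303, lost in 5 of 22 settings). The genes that fell at day 7 and at day 15 were DDIT4 and VEGFA. For DDIT4 the log2 fold changes were -1.38 and -1.48 (limma adjusted p = 0.00519 and 0.00230, lost in 0 and 1 of 22 settings). For VEGFA they were -1.30 and -0.98 (limma adjusted p = 0.0158 and 0.0338, lost in 4 and 9 of 22 settings). Among 14 regulators of glycolytic genes 2 fell at day 7 and 4 at day 15, and among 19 genes of insulin and energy signalling 1 fell at day 7, and 1 rose and 4 fell at day 15, each against day 0. In the hexosamine list 1 of 7 fell at day 15. In the 9 lists no gene passed at day 15 against day 7 with limma, where the unadjusted counts at p under 0.05 reached at most 1 upward and 3 downward in a list.

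Markers of other cell types were followed too, against the same shares of all genes. In tissue RNA, fewer cells of a type and less RNA per cell cannot be told apart. At day 7 against day 0, 2 of 10 endothelial markers rose and 2 fell, 2 of 8 fibroblast markers rose, 1 of 8 macrophage markers rose, and of 8 markers of pericytes and smooth muscle 1 rose and 2 fell. At day 15 against day 0, 2 of 8 macrophage markers rose and 1 of 10 endothelial markers, EMCN, fell. Of the 8 pericyte and smooth muscle markers 5 fell and 1 rose (limma, adjusted p under 0.05). Several of these calls were lost often, at day 7 ACTA2 in 13, CSF1R in 10 and COL3A1 in 9 of 22 settings. At day 15 PDGFRB was lost in 12 and EMCN in 10 of 22. Others were kept in each of 22 settings. At day 15 these were the falls of MYH11, TAGLN, ACTA2 and CNN1 (-1.42, -1.18, -1.01 and -2.15). At day 7 they were the fall of FABP4 (-1.76) and the rise of ABCC9 (0.94). Beside PYGL, a gene also known from liver and white blood cells, the summed macrophage markers had 64.6, 77.8 and 73.9 TPM on day 0, 73.0, 124 and 69.7 TPM on day 7 and 62.1, 274 and 104 TPM on day 15. The 7 neutrophil markers found summed to at most 19.3 TPM in any library and 2 of them were tested. S100A8 of these, listed at 0 in 3 of the 9 libraries and at no more than 5.62 TPM, fell at day 7 and at day 15 against day 0 (-1.83 and -1.51, limma adjusted p = 0.00585 and 0.00811). The part of these cells in the PYGL result was not tested. Summed erythroid markers ranged from 396 to 1268 TPM, highest in day 0 replicate 5. Of the 5 tested 1, GYPC, rose at day 7 and at day 15 against day 0. Its log2 fold changes were 0.96 and 1.03 (limma adjusted p = 0.0226 and 0.0122, lost in 6 and 2 of 22 settings). Atrial markers summed to 568, 2959 and 836 TPM on day 0, 426, 2329 and 148 TPM on day 7 and 175, 652 and 323 TPM on day 15, so that replicate 5 was highest within both day 0 and day 7.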

How the data were processed

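RNA of left ventricular myocardium was measured in 9 libraries. The deposited table gives TPM per gene, made by the authors with Trimmomatic 0.33, HISAT2 2.0.5 and kallisto 0.43.1 named in the submitters' processing notes without role or order. Genome build, annotation and strand handling were not stated in the sources used here. TPM keeps no depth, so no counting interval could be given.

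A pseudocount of 1 TPM was added before log2, and the 12268 of 22629 rows with at least 1 TPM in at least 3 libraries were tested with limma 3.58.1 (R 4.3.3, trended variance, 6 residual degrees of freedom, all ages in 1 fit). P-values were adjusted over all tested genes by the Benjamini-Hochberg method at 0.05. Isoform ratios were tested by exact permutation of log2 ratios (Python 3.11.15). The fit was tested on simulated data.

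Per-library values are given for genes past the threshold and the most abundant gene of each role, with GPI, PYGM, UGP2, ALDOA and LDHA added after their values were seen. Of each other list, up to 4 called genes with the smallest adjusted p were named. The members and the lists were chosen with earlier results of these data known. Alternatives changed the pseudocount, filter, scaling, library weights, ages in the fit, replicate block or libraries included.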

Additional observations from a re-analysis of the deposited data

Results flagged for a closer look

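For 2 genes the change over the first week differed from the change over the second week, tested as day 7 minus day 0 against day 15 minus day 7 within the limma fit. Of all genes, 1.92% passed this test. SLC16A3, the MCT4 lactate transporter, had a difference of -3.58 ± 0.44 SE on the log2 scale (limma adjusted p = 0.00696), being -2.11 over the first week and 1.47 over the second. The call was lost without day 7 replicate 6 (limma adjusted p = 0.0659).

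PGM1, phosphoglucomutase, had a difference of -2.37 ± 0.50 SE (limma adjusted p = 0.0359), being -1.69 over the first week and 0.68 over the second. The call was lost in 10 of 21 settings, which include leaving out any day 7 library, any day 15 library, or day 0 replicate 4 or 6. Both differences rest on the same 3 day 7 libraries, of which replicate 6 was the lowest for both genes. Their cause was not tested.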

How the results depend on the processing

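Of 261 refits of the 12 called gene and comparison pairs, 192 kept the call, 69 lost it and 0 changed sign. At day 7 against day 0, where 5 genes passed, 8 passed after median-of-ratios scaling (30.9% of all genes) and 8 without mitochondrial and the 20 most abundant genes (29.3%). At day 15 against day 7, where 1 passed, 0 passed with a pseudocount of 0.1, with the filter dropped, with a filter at a mean of 5 TPM, under any of the 4 other scalings or only the 2 ages in the fit, and 11 passed with library weights, where 25.2% of all genes did. At day 15 against day 0, where 4 passed, 1 passed with no filter (12.8% of all genes) and 15 with library weights (52.2%). Median-of-ratios scaling gave 7 (31.0% of all genes) and quantile normalization 9 (30.7%). Without the most abundant gene 7 passed (30.8%), and without mitochondrial and the 20 most abundant genes 7 (29.1%). For the first step minus the second, where 2 passed, 1 passed with no filter (0.237% of all genes). Without mitochondrial and the 20 most abundant genes 4 passed (5.31% of all genes), and with library weights 5 (13.2%). The estimation of those weights stopped before it converged. Leaving out 1 library gave 3 to 6, 0 to 1, 1 to 5 and 0 to 4 calls in these 4 comparisons, and 0 to 3 isoform ratios where 0 passed. With limma on the ratios, chosen after seeing the data, 3 passed. Replicate numbers are shared between some ages, and the deviations of same-numbered libraries correlated between -0.213 and 0.170 over 5 pairs, so the numbers were not taken to pair libraries. With a replicate block, which leaves 2 residual degrees of freedom, 3, 0, 1 and 1 genes (6.99%, 1.03%, 7.49% and 0.228% of all genes) and 3 ratios passed. HK2 over HK1 and SLC16A1 over SLC16A3 passed with limma both with and without the block. With the block ENO3 over ENO1 was lost and LDHB over LDHA came in. The causes of these shifts were not tested. Depth is unknown from TPM, so the precision of low genes such as PHKG1 and HK2 could not be stated, and 3 libraries per age limit all comparisons.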
